A study of Mus musculus with 43 samples.

Results

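Mural cells and fibroblasts sit on the blood vessels and in the coverings of the brain and are not glia, and 10 of their genes were followed here through 43 glial RNA libraries of mouse cerebral cortex, out of 55416 genes counted. The 10 genes, chosen by name, were Acta2, Tagln and Myh11 of contractile smooth muscle, Pdgfrb, Rgs5 and Vtn of pericytes, and Dcn, Lum, Col1a1 and Col1a2 of fibroblasts. The libraries were made from cells that bound to plates coated with an antibody (immunopanning): microglia on anti-CD45, oligodendrocyte precursor cells (OPCs) on anti-PDGFRα, oligodendrocytes on the GalC antibody and astrocytes on anti-HepaCAM, so each mouse could give 1 library of each type. There were 8 oligodendrocyte, 11 OPC, 12 astrocyte and 12 microglia libraries from littermate pairs of mice aged 3 months, namely 4 control and 4 Rag2-/- oligodendrocyte libraries, 6 and 5 OPC libraries, and 6 and 6 of astrocytes and of microglia. Controls were Rag2+/- in pairs 1, 2, 3 and 5 and Rag2+/+ in pairs 4 and 6, and the Rag2-/- mice, which lack mature T and B lymphocytes, carried the Rag2tm1.1Cgn allele on the C57BL/6J background; both sexes were used and all mice came from 1 colony. In pair 6 the control was male and the Rag2-/- mouse female, while the mice of each other pair were of the same sex. The allele is carried by every cell of the animal, the glia and the vessel wall included. All libraries of 1 cell type were sequenced on the same lane, so lane and cell type cannot be told apart.

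Smooth muscle cells wrap arteries and arterioles and contract through actin and a muscle-specific myosin, while pericytes lie along capillaries inside the basement membrane and depend on platelet-derived growth factor from the endothelium, which they sense with the receptor encoded by Pdgfrb. Fibroblasts lie in the meninges and around larger vessels and lay down fibrillar collagen, with small proteoglycans that bind the collagen fibrils. In the healthy cortex these cells are a minority beside the glia and neurons. In bulk RNA, fewer cells of a type and less RNA per cell cannot be told apart.

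Levels are given as CPM, the usual library-scaled count, here taken over all counts on genes of that library. Depth was 6499417 to 23118497 counts on genes per library (median 10447042). Mitochondrial genes held 45.8% to 60.1% of those counts in oligodendrocyte, 22.4% to 36.7% in OPC, 22.5% to 45.1% in astrocyte and 6.76% to 11.7% in microglia libraries, which lowers the CPM of every other gene in step. Rag2 itself was near 0, with at most 4 counts in any of 22 control libraries and 0 in the 21 Rag2-/- libraries. Iftap, a gene that overlaps it, had 14 to 208 counts in controls and 0 to 2 in Rag2-/- libraries, which follows the labels. The marker panel of each glial type had its highest mean in the libraries of that type.

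Acta2 and Rgs5 rose and fell together across the OPC libraries, as described further on, so the 250 bases before their transcription starts are shown, as RefSeq gives them on GRCm38.p6. They were searched on both strands for the CArG box, the element bound by serum response factor, allowing 1 difference, and matches are in capitals. The search covered 4 of the 10 genes, and the promoters of the others were not searched.
Acta2, chr19:34255374-34255623, minus strand: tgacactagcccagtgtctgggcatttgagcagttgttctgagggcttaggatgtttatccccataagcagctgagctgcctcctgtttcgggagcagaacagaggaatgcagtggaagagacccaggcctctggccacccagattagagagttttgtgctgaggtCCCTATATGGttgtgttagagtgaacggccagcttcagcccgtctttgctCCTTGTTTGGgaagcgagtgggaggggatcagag
Rgs5, chr1:169655251-169655500, plus strand: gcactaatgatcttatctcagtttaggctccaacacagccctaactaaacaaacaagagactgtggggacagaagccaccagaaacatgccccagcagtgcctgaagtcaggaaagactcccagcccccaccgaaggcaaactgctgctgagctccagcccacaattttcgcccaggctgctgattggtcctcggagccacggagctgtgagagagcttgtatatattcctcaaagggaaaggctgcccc
Acta2 held 2 such matches, at bases 84 to 75 and 34 to 25 before the start, each with 1 difference, and Rgs5 held 0. Of the other promoters searched among the 10 genes, that of Col1a2 also held 2 matches with 1 difference each, and that of Vtn held 0. A match with up to 1 difference is found in 18.6% of the 32851 promoters searched, and an exact one in 1.47%. A match is a description of these letters and no evidence of binding.

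The summed level of the 10 genes was highest in the OPC libraries. It averaged 311 ± 164 CPM in OPCs (SD, n = 11, from 142 to 710), 136 ± 21.5 in astrocytes (n = 12, 93.1 to 171), 46.5 ± 15.3 in microglia (n = 12, 24.8 to 69.4) and 33.9 ± 32.0 in oligodendrocytes (n = 8, 7.54 to 99.9). The lowest OPC libraries overlapped the astrocyte range, and the microglia and oligodendrocyte ranges overlapped each other. The order of these last types depended on the scaling, since oligodendrocytes averaged 76.6 and microglia 51.4 CPM on counts outside the mitochondrion, and 60.3 and 38.9 CPM with TMM factors, which scale libraries by the genes they share. Of the 10 genes, 8 had their highest mean in OPC libraries, against 36.8% of all 19209 genes tested across the cell types, Pdgfrb had its highest in astrocytes (16.7% of genes) and Tagln in microglia (39.4%), while oligodendrocytes had the highest mean for 0 of them (7.12%). The genes did not keep 1 ratio between the cell types. The pericyte genes made up 55.4% of the sum in OPCs and 88.7% in astrocytes, and the contractile genes 31.4% in OPCs, 33.4% in oligodendrocytes, 11.1% in microglia and 1.32% in astrocytes.

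**Figure D1:**
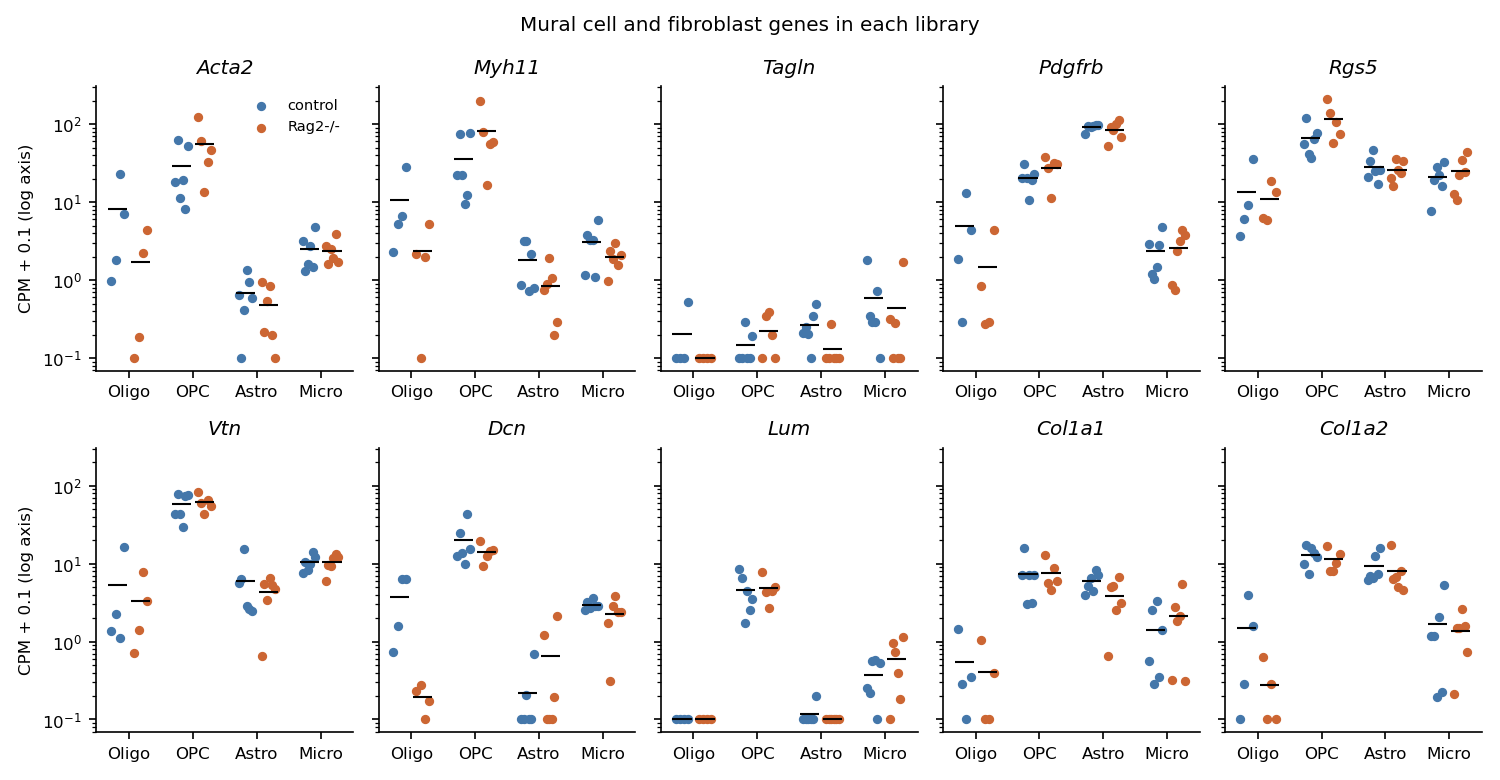
Each point is 1 library, with its CPM plus 0.1 on a log axis, by cell type on the horizontal axis and by genotype in colour, and the black line is the group mean. Acta2 and Myh11 lie highest in OPC libraries, Pdgfrb lies highest in astrocyte libraries at 51.9 to 115 CPM, and Tagln stays below 2 CPM everywhere.

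**Figure D2:**
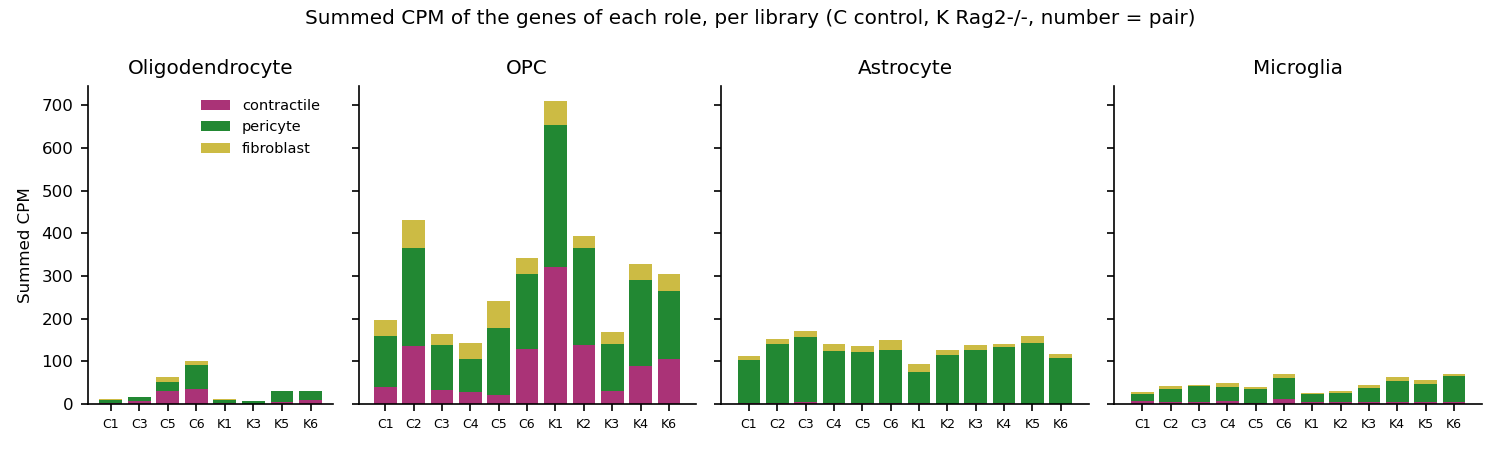
Bars give the summed CPM of the contractile, pericyte and fibroblast genes in each library, with C for control, K for Rag2-/- and the number of the littermate pair. OPC Rag2-/- replicate 1 reached the highest sum, 710 CPM, and the astrocyte bars consist mostly of pericyte genes.

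The contractile genes Acta2 and Myh11 were abundant in OPC libraries and close to 0 in astrocyte libraries. Acta2 (ENSMUSG00000035783, GRCm39 chr19:34217737-34232990, minus strand), the smooth muscle actin, had 8.16 CPM in the lowest OPC library, a median of 32.5 and 125 in the highest, with a mean of 40.8 ± 34.4 (SD, n = 11). Its range was 0 to 22.9 CPM in oligodendrocytes (median 1.92), 1.21 to 4.67 in microglia (median 2.11) and 0 to 1.25 in astrocytes. Every OPC library stood above every microglia and every astrocyte library, while the oligodendrocyte range overlapped those of the other 3 types.

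Myh11 (ENSMUSG00000018830, chr16:14012399-14109236, minus strand), the smooth muscle myosin heavy chain, followed the same order. It had 9.23, 55.5 and 197 CPM in the lowest, median and highest OPC library, 0, 3.64 and 28.3 in oligodendrocytes, 0.879 to 5.76 in microglia and 0.0956 to 3.07 in astrocytes. Again the OPC libraries overlapped with oligodendrocyte libraries but with none of the microglia or astrocytes.

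Tagln (ENSMUSG00000032085, chr9:45840909-45847404, minus strand), which encodes the actin-binding protein transgelin of smooth muscle, was the exception among the contractile genes. It had 0 to 15 counts per library in the whole series, 0 in 6 of the 11 OPC libraries and at most 4 counts in the others. Too few counts kept it out of the tests in every comparison. Of its exonic bases, 66.7% lie under genes of the opposite strand, Pcsk7 and Gm48529, and the sources used here do not say how the counting treated strand and overlap, so its level is uncertain. For Acta2 this share was 9.3%, under Stambpl1, and for the other 8 genes 0.

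The pericyte genes differed in where they were highest. Pdgfrb (ENSMUSG00000024620, chr18:61178212-61218133, plus strand), the receptor for platelet-derived growth factor B, had 51.9 CPM in the lowest, 93.1 in the median and 115 in the highest astrocyte library, against 10.6, 22.7 and 37.7 in OPCs, 0.175, 1.24 and 12.9 in oligodendrocytes and 0.646 to 4.67 in microglia. The astrocyte range lay above that of every other type, and OPCs lay above microglia but overlapped the highest oligodendrocyte library. Pdgfrb alone made up 65.1% of the 10-gene sum in astrocytes.

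Rgs5 (ENSMUSG00000026678, chr1:169483036-169524887, plus strand), a regulator that shortens G protein signalling, and Vtn (ENSMUSG00000017344, chr11:78388717-78393156, plus strand), the adhesion protein vitronectin, were highest in OPCs. Rgs5 had 36.5, 75.5 and 211 CPM in the lowest, median and highest OPC library, 16.01 to 46.5 in astrocytes, 7.54 to 43.8 in microglia and 3.56 to 35.7 in oligodendrocytes. Vtn had 29.8, 59.8 and 82.0 CPM in OPCs, 5.82 to 14.2 in microglia, 0.559 to 15.4 in astrocytes and 0.603 to 16.2 in oligodendrocytes. Vtn in OPCs overlapped with no other type, whereas Rgs5 in the lowest OPC libraries overlapped astrocytes and microglia. Rgs5 made up 48.8% of the 10-gene sum in microglia.

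Among the fibroblast genes, the proteoglycans and the collagens behaved differently. Dcn (ENSMUSG00000019929, chr10:97315275-97358155, plus strand) encodes decorin, a proteoglycan that binds collagen fibrils, and had 9.35, 14.5 and 43.3 CPM in the lowest, median and highest OPC library, 0.215 to 3.78 in microglia and 0 to 6.33 in oligodendrocytes. In astrocytes it was 0 in 7 of 12 libraries and at most 2.05 CPM. Lum (ENSMUSG00000036446, chr10:97400990-97408577, plus strand), for the related proteoglycan lumican, had 1.63 to 8.44 CPM in OPCs (median 4.33) and 0 to 1.06 in microglia. The 12 astrocyte libraries held 1 Lum count in all, and the 8 oligodendrocyte libraries held 0.

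For Lum, 3 counts over the oligodendrocyte libraries would be 0.0316 CPM, and its OPC mean was 145-fold that floor. Mitochondrial counts lower the oligodendrocyte CPM, so this fold depends on the scaling and is no lower bound under TMM factors. Pooled over libraries, Lum was 524-fold higher in CPM in OPCs than in astrocytes. The exact 95% interval of this fold, from 93.7 to 20732, covers counting error only. OPC libraries overlapped with no other type for either Dcn or Lum.

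Col1a1 (ENSMUSG00000001506, chr11:94827050-94843868, plus strand) and Col1a2 (ENSMUSG00000029661, chr6:4504814-4541555, plus strand) encode the chains of type I collagen and were present in astrocyte as well as OPC libraries. Col1a1 averaged 7.32 ± 3.97 CPM in OPCs (SD, n = 11) and 4.80 ± 2.15 in astrocytes (n = 12), against 1.67 ± 1.58 in microglia and 0.377 ± 0.498 in oligodendrocytes. Col1a2 averaged 12.0 ± 3.70, 8.51 ± 4.20, 1.42 ± 1.42 and 0.787 ± 1.35 CPM in the same order. The OPC and astrocyte ranges overlapped for both genes, at 2.97 to 15.95 and 0.559 to 8.27 CPM for Col1a1 and 7.18 to 17.4 and 4.47 to 17.1 for Col1a2.

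Levels of different genes can be set side by side only per length, here as mean CPM per kilobase of the transcript that Ensembl marks as canonical. In OPCs the order was Vtn 33.7, Rgs5 21.7, Acta2 14.6, Myh11 8.65, Pdgfrb 4.40, Dcn 2.83, Col1a2 2.24, Lum 1.86 and Col1a1 1.23 CPM per kilobase. In astrocytes Pdgfrb led with 16.4 CPM per kilobase. Set against the OPC mean of the same gene, the astrocyte mean was 373% for Pdgfrb, 71.0% for Col1a2, 65.6% for Col1a1 and 30.2% for Rgs5, but 8.50% for Vtn, 2.18% for Myh11, 1.91% for Dcn, 1.16% for Acta2 and 0.178% for Lum. In oligodendrocytes the genes other than Lum and Tagln lay between 5.15% and 13.7% of their OPC mean, and in microglia those other than Tagln lay between 4.28% and 25.4%. These are ratios of CPM, which mitochondrial counts lower most in oligodendrocytes. With TMM factors, the fitted folds of OPCs over oligodendrocytes were smaller, from 3.85 for Rgs5 to 11.3 for Col1a2 among the genes other than Lum and Tagln.

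**Figure D3:**
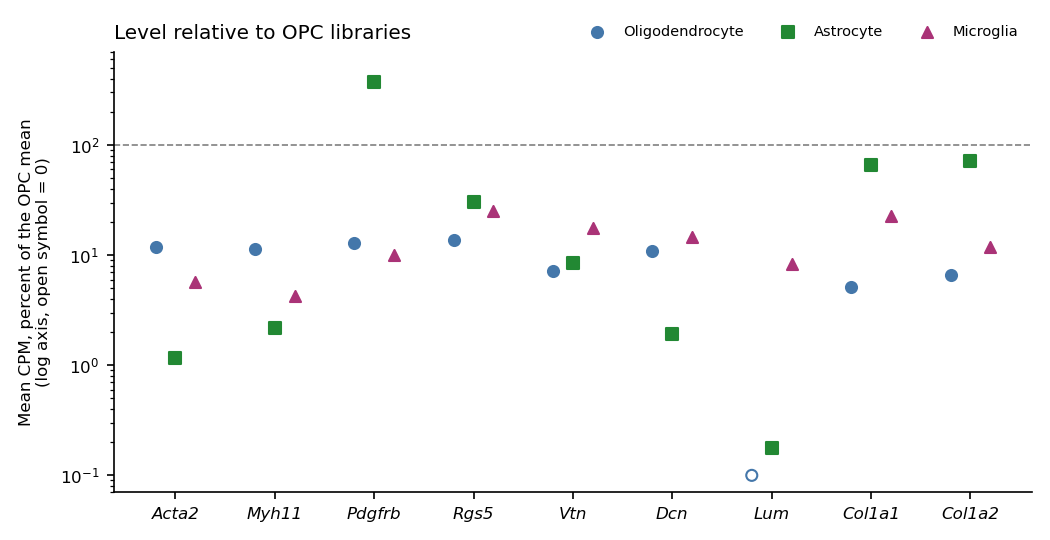
For 9 genes (Tagln left out), symbols give the mean CPM in oligodendrocyte, astrocyte and microglia libraries as a percent of the OPC mean, on a log axis, and an open symbol stands for 0. The astrocyte points run from 0.178% for Lum to 373% for Pdgfrb, while the oligodendrocyte points other than Lum lie within 5.15% to 13.7%.

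The cell types were compared by the quasi-likelihood test of edgeR, with p-values adjusted over 19209 genes by the Benjamini-Hochberg method, the mouse as a block and an adjusted p under 0.05 as the threshold. Against oligodendrocytes, OPCs were higher in 9 of 9 tested genes, where 23.5% of all genes tested were higher and 14.9% lower, and the median log2 fold change of the 9 was 2.83 against 0.26 over all genes. The 9 include Lum, which met the minimum of counts within OPCs and within no other type, so that it was tested only because it was high in OPCs, and its calls lend no support. Acta2 differed by 2.40 ± 0.74 (log2 fold change ± SE, edgeR adjusted p = 0.0102), Myh11 by 2.08 ± 0.61 (adjusted p = 0.00675), Vtn by 3.23 ± 0.47 (adjusted p = 1.08e-06) and Col1a2 by 3.50 ± 0.69 (adjusted p = 0.000121). For 6 of the 9 genes every OPC library lay above every oligodendrocyte library, as it did for 21.7% of all genes. With library size alone in place of TMM factors, the median over all genes moved by 1.06 and the OPC-higher share of the called genes from 61.2% to 93.9%, and the 9 genes passed the test with either scaling.

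Against microglia, OPCs were also higher in 9 of 9 tested genes, where 39.8% of all genes were higher and 31.6% lower, with a median of 3.14 against 0.18 over all genes. The differences ran from 1.97 ± 0.30 for Rgs5 (edgeR adjusted p = 5.76e-07) to 4.16 ± 0.55 for Myh11 (adjusted p = 2.49e-08). The libraries did not overlap for 7 of the 9 genes, against 21.4% of all genes with OPCs above microglia. The 2 that overlapped were Rgs5 and Col1a1.

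Astrocytes against OPCs split the genes. Pdgfrb was higher in astrocytes by 2.32 ± 0.38 (edgeR adjusted p = 5.53e-06), as were 17.8% of all genes. Lower were 6 genes, against 25.3% of all genes: Acta2 by -5.96 ± 0.69 (adjusted p = 6.11e-09), Dcn by -5.42 ± 0.76 (2.81e-07), Myh11 by -4.80 ± 0.57 (1.01e-08), Vtn by -3.31 ± 0.38 (5.63e-09) and Rgs5 by -1.28 ± 0.30 (0.000628), with Lum, tested only through its OPC counts, given above. Col1a1 and Col1a2 did not pass the test, with -0.08 ± 0.56 (adjusted p = 0.93) and -0.13 ± 0.48 (adjusted p = 0.853), and the sign of Col1a1 turned with DESeq2's scaling. Every astrocyte library lay above every OPC library for Pdgfrb (3.43% of all genes) and below for 5 genes (13.8%). With library size alone, 20.2% of the genes called between astrocytes and OPCs were higher in astrocytes, against 41.3% with TMM factors, and Pdgfrb passed in the same direction.

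Against oligodendrocytes, astrocytes were higher in Pdgfrb by 4.69 ± 0.52 (edgeR adjusted p = 2.22e-09), Col1a2 by 3.37 ± 0.68 (9.4e-05) and Col1a1 by 2.96 ± 0.71 (0.000756), where 23.7% of all genes were higher. They were lower in Acta2 by -3.57 ± 0.76 (0.000181), Myh11 by -2.72 ± 0.61 (0.000311) and Dcn by -2.59 ± 0.86 (0.0125), where 24.9% were lower. The Dcn difference did not pass without the block (-1.82, adjusted p = 0.054) or without the mouse of control replicate 5 (adjusted p = 0.0882) or 6 (0.0869). With library size alone, 77.0% of the genes called were higher in astrocytes, against 48.8%.

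Against microglia, astrocytes were higher in 4 genes (37.9% of all genes were) and, beside Lum, lower in 3 (34.1%). Pdgfrb was 5.67 ± 0.44 higher (edgeR adjusted p = 6.24e-14), Col1a2 3.00 ± 0.53 (4.77e-06) and Col1a1 2.19 ± 0.56 (0.000739), while Dcn was lower by -2.93 ± 0.74 (0.000649) and Acta2 by -2.13 ± 0.65 (0.00418). Rgs5, 0.69 higher (0.0296), and Vtn, at -0.82 (0.04), did not pass without the block, at adjusted p = 0.0728 and 0.0741, and Rgs5 did not pass with library size alone (0.35). Leaving out 1 mouse ended the call of Rgs5 for control replicates 1 and 2 and Rag2-/- replicate 3 (adjusted p up to 0.0731), and that of Vtn for control replicates 2, 4 and 5 and Rag2-/- replicates 1, 2, 3, 5 and 6 (up to 0.0956).

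Between oligodendrocytes and microglia only Myh11, higher by 2.08 ± 0.58 (edgeR adjusted p = 0.00209, 33.5% of all genes higher), passed beside Lum, which had 0 counts in oligodendrocytes and 0 to 10 per library in microglia. Myh11 did not pass with library size alone (1.03, adjusted p = 0.0976), where 28.3% of the called genes were higher in oligodendrocytes against 49.3%.

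Other genes of the same cell types were taken from lists that, like the 10, were chosen with earlier results of these data known. The calls on these lists are a description and no independent support. A listed gene that met the minimum of counts within OPCs alone was tested only because it was high there. Calls of such genes lend no support. Of 12 listed contractile genes, 10 met this minimum within OPCs, 6 within oligodendrocytes, 8 within astrocytes and 7 within microglia. The highest mean lay in OPCs for 10 of the 12, in astrocytes for 1 and in microglia for 1 (36.8%, 16.7% and 39.4% of all genes). Of 10 tested contractile genes beside the 3 above, 6 were higher and 0 lower in OPCs than in oligodendrocytes (23.5% and 14.9% of all genes; median log2 fold change 0.96, against 0.26 over all genes), and 8 were higher and 1 lower than in microglia (39.8% and 31.6%; median 2.84, against 0.18). Myl9, a myosin light chain of smooth muscle, averaged 26.7 CPM in OPCs, 5.24 in astrocytes, 1.67 in microglia and 0.447 in oligodendrocytes, and Des, the intermediate filament of muscle and pericytes, 7.95, 0.552, 0.546 and 0.820. Astrocytes were higher than OPCs in 0 and lower in 7 of the 10 (17.8% and 25.3% of all genes; median -2.17, against -0.13), Myl9 by -1.93 ± 0.56 (edgeR adjusted p = 0.00502) and Des by -4.15 ± 0.88 (0.000217).

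Of 12 tested pericyte genes, 8 were higher and 1 lower in OPCs than in oligodendrocytes, where 23.5% and 14.9% of all genes were, with a median of 2.32 against 0.26. Astrocytes were higher than OPCs in 2 and lower in 4, against 17.8% and 25.3% of all genes, with a median of -0.45 against -0.13. Of the 14 listed, 11 met the minimum of counts within OPCs, 5 within oligodendrocytes, 8 within astrocytes and 8 within microglia. Cspg4, which is on this list, also marks OPCs themselves. Abcc9 and Kcnj8, the subunits of the potassium channel of pericytes, averaged 12.3 and 3.78 CPM in OPCs and 1.83 and 0.682 in astrocytes, and Abcc9 was lower in astrocytes by -2.48 ± 0.49 (edgeR adjusted p = 8.55e-05) while Kcnj8 did not pass (-1.99, 0.0831). Notch3, a receptor of mural cells, averaged 11.3 CPM in OPCs and 11.6 in astrocytes and did not pass either (0.62 ± 0.47, 0.296). Atp13a5, a transport ATPase of brain pericytes, was 1.20 ± 0.38 higher in astrocytes (0.00995), at 18.5 against 11.8 CPM.

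Of 17 tested fibroblast genes, 14 were higher and 0 lower in OPCs than in oligodendrocytes (23.5% and 14.9% of all genes; median 2.84, against 0.26), and in astrocytes 3 were higher and 13 lower than in OPCs (17.8% and 25.3%; median -3.90, against -0.13). Of the 20 listed, 18 met the minimum of counts within OPCs, but 5 within oligodendrocytes, 6 within astrocytes and 8 within microglia. Genes that met it within OPCs alone were tested only because they were high there, so their calls lend no support. The list holds Pdgfra, the protein on which OPCs were caught. Col3a1, the chain of type III collagen, averaged 3.85 CPM in OPCs and 0.0169 in astrocytes, and Lama1, a laminin chain, 18.7 and 0.324 CPM. Both were lower in astrocytes (edgeR adjusted p = 6.55e-08 and 1.23e-09). The 3 genes higher in astrocytes were Prelp, a proteoglycan at 196 against 36.4 CPM (1.99e-07), the growth factor binding protein Igfbp2 at 95.8 against 26.9 CPM (2.22 ± 0.28, 4.32e-08) and the matrix protein Fbln1 at 20.3 against 6.28 CPM (2.37 ± 0.51, 0.000245).

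Of 17 tested genes whose products fold, modify or process collagen, 6 were higher and 3 lower in astrocytes than in OPCs (17.8% and 25.3% of all genes; median 0.13, against -0.13), and 6 were higher and 0 lower in OPCs than in oligodendrocytes (23.5% and 14.9%; median 0.69, against 0.26). The sum of this list was highest in microglia, at 706 CPM on average against 414 in OPCs, 392 in astrocytes and 170 in oligodendrocytes. Of the 17 genes, 7 had their highest mean in microglia, near the share of all genes, 39.4%. The collagen chaperone Serpinh1 averaged 26.7 CPM in astrocytes and 14.4 in OPCs (1.41 ± 0.39, edgeR adjusted p = 0.00344), Fkbp10 23.8 and 5.02 (3.40 ± 0.63, 3.37e-05) and the prolyl hydroxylase subunit P4ha2 10.2 and 3.84 (2.43 ± 0.57, 0.000693). Both Serpinh1 and Fkbp10 were at 1.02 CPM or less on average in oligodendrocytes and microglia. Of 5 genes for platelet-derived growth factors and the second receptor, 2 were higher and 3 lower in astrocytes than in OPCs (17.8% and 25.3% of all genes). The second receptor, Pdgfra, is the protein on which OPCs were caught, so its call lends no support. The ligand Pdgfb, which acts on the Pdgfrb receptor, was most abundant in microglia at 506 CPM and averaged 17.5 in OPCs, 13.4 in oligodendrocytes and 1.11 in astrocytes.

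Of 12 tested endothelial genes, from the cells that line the vessels, 9 had their highest mean in OPC and 3 in microglia libraries. Of all genes, 36.8% and 39.4% did. In OPCs 9 were higher and 1 lower than in oligodendrocytes (23.5% and 14.9% of all genes; median 2.14, against 0.26), and 6 were higher and 2 lower than in microglia (39.8% and 31.6%; median 1.67, against 0.18). In astrocytes 8 were lower and 1 higher than in OPCs (25.3% and 17.8%; median -1.80, against -0.13). Within OPCs all 12 met the minimum of counts, within oligodendrocytes 7, within astrocytes 8 and within microglia 11. The 12 summed to 228 CPM on average in microglia, 212 in OPCs, 199 in astrocytes and 73.8 in oligodendrocytes. Slc2a1, which astrocytes and microglia also express, made up much of this list's sum, and it was left out after values were seen. The other 11 summed to 57.8 to 265 CPM in OPCs (mean 129), 26.0 on average in astrocytes, 49.6 in microglia and 19.4 in oligodendrocytes. The highest sum was that of OPC Rag2-/- replicate 1, which also had the highest astrocyte panel sum among OPC libraries, 7366 CPM against a lowest of 2733 and a median of 3362. The part of endothelial cells in the mural levels was not tested.

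Some of the genes varied together across the 11 OPC libraries. Of 36 gene pairs, 11 had a Pearson correlation of log2(CPM + 0.5) with a Benjamini-Hochberg adjusted permutation p under 0.05, and each was positive. The share of all gene pairs that pass in these libraries was not computed. The count therefore cannot be read as particular to these genes. These were the contractile pair, the 3 pericyte pairs, 1 of 6 fibroblast pairs and 6 of 26 pairs of different roles. Acta2 and Myh11 correlated at r = 0.93 (rho = 0.85, permutation adjusted p = 0.00432 and 0.0206, n = 11), Myh11 and Rgs5 at r = 0.89 (rho = 0.86, 0.00432 and 0.0206), Acta2 and Rgs5 at r = 0.84 (rho = 0.81, 0.0131 and 0.0206) and Pdgfrb and Rgs5 at r = 0.81 (rho = 0.85, 0.0148 and 0.0206). Without the 2 libraries farthest from the median of the first gene these were 0.87, 0.91, 0.84 and 0.85, and with each genotype centred on its own mean 0.91, 0.86, 0.80 and 0.79. Col1a1 and Lum formed another pair at r = 0.82 (rho = 0.81, 0.0148 and 0.0206), 0.76 without the 2 farthest.

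Dcn passed with none of them by Pearson correlation. It correlated with Acta2 at r = -0.11 (rho = 0.15, permutation adjusted p = 0.82 and 0.691), with Myh11 at r = 0.02 (rho = 0.22, 0.977 and 0.584) and with Lum at r = -0.08 (rho = 0.06, 0.878 and 0.861, n = 11), and without the 2 libraries farthest from the median of the first gene these were 0.36, 0.45 and 0.20. With Vtn it was r = 0.65 (rho = 0.78, permutation adjusted p = 0.082 and 0.0285, n = 11), 0.67 without the 2 farthest, so this pair passed by rank. Its highest library was OPC control replicate 5, at 43.3 CPM, where Acta2 was lowest at 8.16 CPM. These libraries share a sequencing lane, and depth was not entered into the correlations. Across cell types of the same mouse, 35 relations of a gene between 2 types gave r from -0.59 to 0.67 (median 0.13), of which 0 had an adjusted permutation p under 0.05 and 1 an unadjusted p under 0.05.

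**Figure D4:**
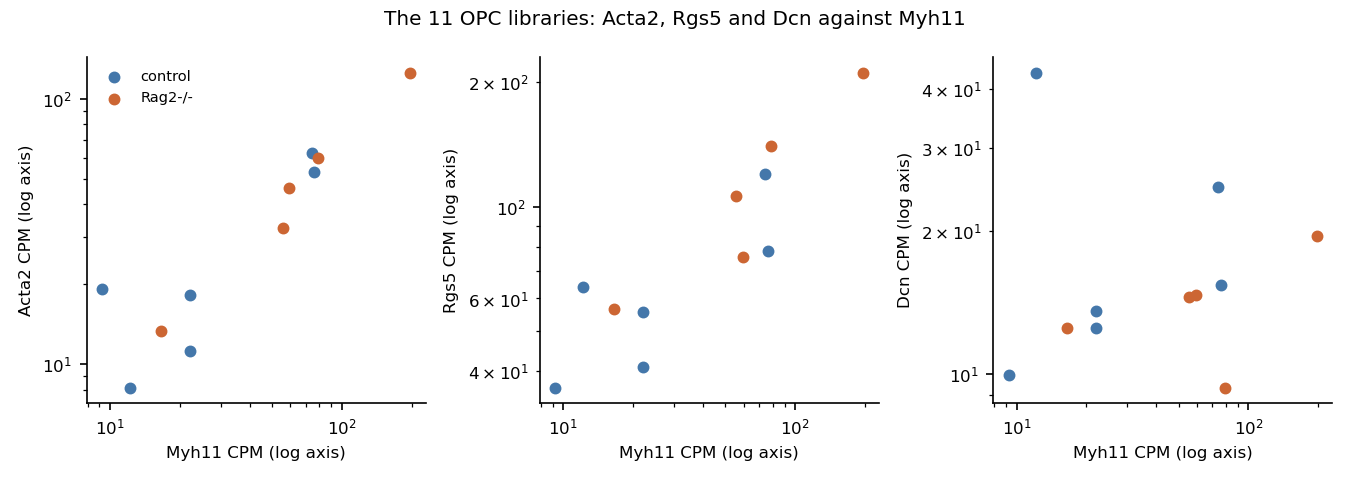
Each point is 1 of the 11 OPC libraries, coloured by genotype, with Myh11 CPM on the horizontal and Acta2, Rgs5 or Dcn CPM on the vertical axis, all on log axes. Acta2 and Rgs5 rise with Myh11 (r = 0.93 and 0.89), and Dcn does not (r = 0.02).

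The study's own contrast was Rag2-/- against control within a cell type. By edgeR's quasi-likelihood test with sex as a term, 0 of the 10 genes passed in any cell type, of 5 tested in oligodendrocytes (0% of all 13802 genes were called, 467 at an unadjusted p under 0.05), 9 in OPCs (0.00592% of 16882, 679 unadjusted), 5 in astrocytes (0.00679% of 14725, 423 unadjusted) and 8 in microglia (0.00667% of 15003, 435 unadjusted). The 1 gene called in each of OPCs, astrocytes and microglia was Iftap. In oligodendrocytes edgeR did not call Iftap, at 34 to 77 counts in controls and 0 to 2 in Rag2-/- libraries. The absence of calls in oligodendrocytes therefore cannot be read as no difference. With DESeq2, 12 genes were called in oligodendrocytes, 3 in OPCs and 1 each in astrocytes and microglia. The paper's own DESeq2 fit, with sex and genotype as terms, gave many more genes in oligodendrocytes than either test here. It also gave Iftap as lower in each cell type. The reason for this difference was not tested.

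The contractile and pericyte genes had higher means in Rag2-/- than in control OPCs without passing the test. Acta2 was 125, 60.0, 13.3, 32.5 and 45.9 CPM in Rag2-/- replicates 1, 2, 3, 4 and 6, and 8.16, 18.7 and 62.6 CPM in the lowest, median and highest of 6 controls. Myh11 was 197, 78.9, 16.6, 55.5 and 59.4 CPM in the same Rag2-/- libraries and 9.23, 22.1 and 76.1 in controls. Rgs5 was 211, 140, 56.7, 106 and 75.5 CPM against 36.5, 59.7 and 120. The highest library was Rag2-/- replicate 1 for all 3, and the groups overlapped.

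The log2 fold changes were 0.95 ± 0.53 for Acta2, 1.19 ± 0.57 for Myh11 and 0.91 ± 0.31 for Rgs5 (edgeR adjusted p = 0.99978 each, unadjusted 0.0955, 0.0539 and 0.00972). Rag2-/- was higher in 3 of 5 littermate pairs for Acta2 and in 4 of 5 for Rgs5. Without OPC Rag2-/- replicate 1 they were 0.28, 0.51 and 0.58. Without the filter on low counts, the same test called all 3 (adjusted p = 2.0e-04, 6.05e-09 and 2.19e-06), with 0.266% of 33850 genes called. The endothelial genes other than Slc2a1 summed to 158 CPM in Rag2-/- and 104.5 in control OPCs on average, and the 12 endothelial genes had positive log2 fold changes (median 0.69) with 0 called. The astrocyte panel also had a higher sum in Rag2-/- OPCs, 4423 against 3205 CPM on average, with 7 of 8 genes positive (median 0.51) and 0 called. The part of either list in these values was not tested. Dcn differed by -0.29 ± 0.29, Vtn by 0.17 ± 0.22, and Col1a1, Col1a2 and Lum by 0.11, -0.13 and 0.12.

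In oligodendrocytes the fitted values of the 5 tested genes had the opposite sign, below 0, and none passed the edgeR test. Neuronal genes (0 of 8 positive, median -0.59) and astrocyte genes (2 of 8 positive, median -0.57) also lay mostly below 0, with 0 called, and control replicate 6 had the highest sum of both panels among oligodendrocyte libraries, 1650 and 1848 CPM, and their part in these values was not tested. Acta2 was 0.870, 1.69, 22.9 and 6.94 CPM in control replicates 1, 3, 5 and 6 and 0, 0.0876, 2.14 and 4.26 in Rag2-/- replicates 1, 3, 5 and 6. It was lower in Rag2-/- in each of 4 pairs, though the groups overlapped. Of these, pair 6 set a male control against a female Rag2-/- mouse. Acta2 differed by -4.56 ± 1.25 (unadjusted p = 0.0034, edgeR adjusted p = 0.998), or by -3.01 with the littermate pair as a block. DESeq2 called it (-4.80, adjusted p = 0.0185), with 0.0869% of genes called. Myh11 differed by -2.80 ± 1.45 and Pdgfrb by -2.39 ± 1.21 without passing, and with 1 library left out Myh11 ranged from -3.79 to -1.31, nearest to 0 without control replicate 6 and next without Rag2-/- replicate 3. For Acta2, Dcn and Pdgfrb the highest libraries were control replicates 5 and 6.

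Dcn was the only one of the 10 genes whose oligodendrocyte groups did not overlap. It was 0.632, 1.51, 6.33 and 6.27 CPM in the controls, or 8 to 75 counts, and 0.134, 0.175, 0 and 0.0735 CPM in Rag2-/- libraries, or 0 to 2 counts. All controls lay above all Rag2-/- libraries for 1.09% of the 29366 genes with at least 1 count. It did not pass the filter, and without the filter it differed by -5.22 ± 1.49 (edgeR adjusted p = 0.269).

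Whether the genotype difference itself varied among the 4 cell types was tested in 1 fit over the 43 libraries, and Dcn passed (edgeR adjusted p = 0.0477), as did 53 of 21368 genes (0.248%). Its fitted differences were -5.20 ± 1.08 in oligodendrocytes, -0.35 ± 0.68 in OPCs, -0.41 ± 0.67 in microglia and 2.13 ± 0.94 in astrocytes, where it had at most 2.05 CPM. Dcn met the minimum of counts within OPCs and microglia but not within oligodendrocytes or astrocytes, whose values near 0 carry these differences, so the call lends no support to a difference between the types. The call was lost with the mouse as a block (adjusted p = 0.173, 5 genes or 0.0234% called) and with the oligodendrocyte libraries left out (0.955, 0 genes called by edgeR and 1077 at an unadjusted p under 0.05), and leaving out 1 library gave 0.0468 (OPC control replicate 5), 0.053 (OPC Rag2-/- replicate 1), 0.0647 and 0.0752 (astrocyte Rag2-/- replicates 1 and 6) and 0.0716 and 0.0933 (oligodendrocyte control replicates 5 and 6). These libraries were chosen after seeing the data. Acta2 was not called (adjusted p = 0.445).

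**Figure D5:**
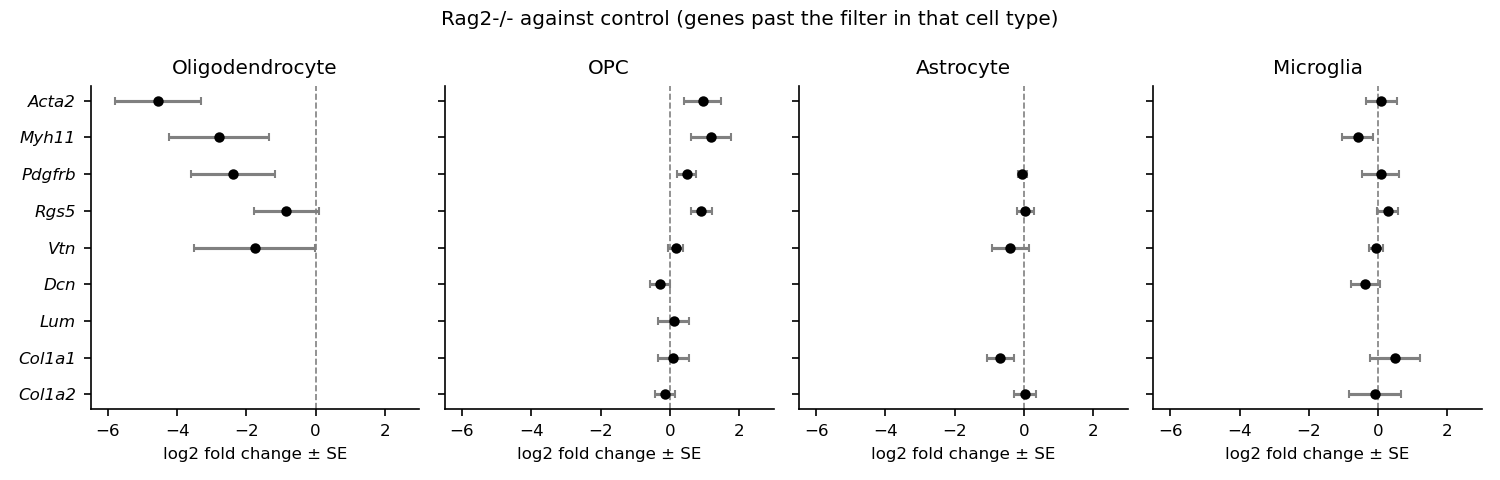
Points give the log2 fold change of Rag2-/- against control with its standard error, for the genes that passed the filter in each cell type. The oligodendrocyte points lie below 0, with Acta2 at -4.56 ± 1.25, the OPC points of Acta2, Myh11 and Rgs5 lie between 0.91 and 1.19, and none passed the adjusted threshold.

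In astrocytes and microglia the genotype values of the abundant genes were close together. Pdgfrb averaged 92.1 CPM in control and 85.4 in Rag2-/- astrocytes, a difference of -0.04 ± 0.12, and Rgs5 differed by 0.04 ± 0.24. Col1a1 differed by -0.69 ± 0.39 in astrocytes (unadjusted p = 0.0943), with 0.559 to 6.59 CPM in Rag2-/- and 3.86 to 8.27 in control libraries. In microglia, where Rgs5 and Vtn were the most abundant of the 10, they differed by 0.28 ± 0.30 and -0.06 ± 0.21.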

How the data were processed

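Mice were perfused, the cortex was digested with papain, and cells were taken in turn from 1 suspension by immunopanning. The authors amplified the RNA with the Ovation V2 system, aligned read pairs to GRCm39 with STAR 2.7.8a and took counts per Ensembl gene from HTSeq. The deposited values were whole-number counts per gene, not normalized by the authors, for each of 43 libraries. A mouse could give 1 library of each cell type, so the libraries are not of separate mice. Amplification precedes counting, so intervals from counts cover counting error only. The strand and overlap settings of HTSeq are not given in the sources used here. Pairs counted on no gene (33.5% to 52.0% of a library) entered neither library sizes nor tests. Depth was 6499417 to 23118497 counts on genes.

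Here CPM were computed on these totals, and tests used edgeR 4.0.16 in R 4.3.3 (TMM factors, quasi-likelihood F test, Benjamini-Hochberg adjustment, threshold 0.05) on genes passing filterByExpr (count minimum 10, total minimum 15). Cell types were compared with the mouse as a block, genotypes within a cell type with sex as a term, and their interaction in a joint fit. Alternatives were DESeq2 1.42.0, other scalings, other filters, mitochondrial genes left out, the block added or removed, and each mouse or library left out. Correlations used 100000 permutations in Python 3.11.15. Littermate pairs are stated by the labels and the study. Over genes, paired libraries deviated together from their group means, with a mean r of 0.0836 (microglia), 0.0856 (OPCs), 0.100 (oligodendrocytes) and 0.132 (astrocytes), against -0.033 to -0.017 between pairs. Positions and transcript lengths came from GENCODE M39 on GRCm39, which held 54749 of the 55416 gene identifiers, and promoters from RefSeq on GRCm38.p6. Of windows of 50 bases in the transcripts of the 10 genes, 0.644% of Dcn's and 0 of the others' had an exact copy elsewhere in the genome.

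Genes were named if they were among the 10, on a list of contractile, pericyte, fibroblast, collagen, growth factor, endothelial or glial genes, or among the 5 whose CPM most resembled each role's over the 43 libraries. The members and lists were chosen with earlier results of these data known.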

Additional observations from a re-analysis of the deposited data

Results flagged for a closer look

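In 72 groups of 4 to 6 libraries, each for 1 gene, 13 values stood apart from the rest of their group by a Dixon test at the 95% level. Chance gives about 1 in 20 groups for normal values. The CPM tested were not shown to be normal and 1 library can count for several genes, so the number is a description. Of these values, 4 were of oligodendrocyte control replicate 6, the highest of 4 for Myh11 (28.3 CPM), Rgs5 (35.7), Vtn (16.2) and Tagln (0.418). The highest Pdgfrb value of the Rag2-/- oligodendrocytes was replicate 6 of the same pair (4.33). In astrocytes, control replicate 3 was highest for Vtn (15.4 CPM), control replicate 6 for Dcn (0.588) and Rag2-/- replicate 1 for Col1a2 (17.1), and control replicate 1 was lowest for Pdgfrb (74.8). In microglia, control replicate 6 was highest for Col1a2 (5.25 CPM), and control replicate 1 (1.69) and Rag2-/- replicate 6 (1.59) for Tagln. In OPCs, control replicate 2 was highest for Col1a1 (15.95 CPM). In the joint edgeR fit, the test of whether the genotype difference of Dcn varied among cell types gave adjusted p = 0.0477, and 0.173 with the mouse as a block, with too few counts to be tested alone in oligodendrocytes or astrocytes.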

How the results depend on the processing

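Between cell types, the calls of the 10 genes kept their direction and passed under DESeq2, other scalings and filters, no block and each mouse left out, except as follows. Dcn between astrocytes and oligodendrocytes (-1.82), Rgs5 (0.60) and Vtn (-0.73) between astrocytes and microglia lost the call with no replicate block, and with library size alone so did Rgs5 (0.35) and Myh11 between oligodendrocytes and microglia (1.03). With 1 mouse left out, the call held in 4 of 12 settings for Vtn and 9 of 12 for Rgs5 between astrocytes and microglia, and in 10 of 12 for Dcn between astrocytes and oligodendrocytes (adjusted p up to 0.0956, 0.0731 and 0.0882). Col1a1 between astrocytes and OPCs, never called, turned sign with DESeq2 (0.0397), its size factors (0.0167) and mitochondrial genes left out (0.00638), and ranged from -0.37 to 0.14 with 1 mouse left out, as Col1a2 did from -0.26 to 0.0567. The cause was not tested. On counts outside the mitochondrion, the summed level was 76.6 CPM in oligodendrocytes, above the 51.4 of microglia, and 208 in astrocytes, against 33.9, 46.5 and 136. OPCs against oligodendrocytes had 13587 genes called with library size alone and 7386 with TMM factors.

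With the littermate pair as a block, the genotype comparisons called 0, 1, 1 and 1 genes, as without it, and none of the 10. For genotype, DESeq2 called 12 genes in oligodendrocytes and 3 in OPCs, no filter called 90 in OPCs, 30 in astrocytes, 14 in oligodendrocytes and 9 in microglia, and a mean count of at least 10 called 3 in microglia, where leaving out 1 library gave 1 to 2. The interaction called 53 genes, 5 with the mouse as a block and 1011 with no filter. Alternatives chosen after seeing the data gave 0 genes without oligodendrocyte libraries and 39 to 57 without 1 of 6 libraries, and Dcn lost the call (adjusted p up to 0.0933) without astrocyte Rag2-/- replicate 1 or 6, OPC Rag2-/- replicate 1 or oligodendrocyte control replicate 5 or 6. Depth limits Tagln, Lum and, outside OPCs, Dcn, whose counts were often under 10.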

Other observations

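With each library centred on its cell type and genotype, the genes outside the 10 whose log2(CPM + 0.5) most resembled the mean of the pericyte genes over the 43 libraries, among 19413 genes, were Ccn1 (Pearson r = 0.76), Sox9, Mgp, Slco1a4 and Prex2 (0.68), as a description with no test. Slco1a4 encodes an organic anion transporter of the brain endothelium and averaged 14.01 CPM in OPCs and 3.10 in astrocytes, while Sox9, a transcription factor of astrocytes, averaged 49.5 and 338 CPM. For the contractile genes they were Tuba4a (0.71), Smim43, Gm13569, Myl4 and Entpd2 (0.66), and for the fibroblast genes Gpm6a (0.68), Tmod2, 9330159F19Rik, Aldh1a2 and Pclo (0.57). Aldh1a2, which makes retinoic acid and is known from meningeal fibroblasts, averaged 5.48 CPM in OPCs, 2.24 in microglia, 0.152 in oligodendrocytes and 0.0541 in astrocytes. Libraries share lanes by cell type and differ in depth.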
